A study of Mus musculus with 18 samples.

Results

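The 8 genes described here encode complement components and a complement regulator that adipocytes transcribe: Cfd (adipsin), Cfb, C2, C3, C4b, C1ra, C1s1 and Serping1. They were chosen by name, as 8 of 33440 genes with a value in the series, and selected on known values of these libraries, namely the differences of FI3OE and of FI3KO from WT, over all replicates and within sets of replicates, and the levels in WT. For that reason the values of the 8 genes are given as a description. How many of them passed the cutoffs of the fit over all genes is stated only beside the share of all genes that did, and is no evidence for the members. All 8 passed the filter on low counts in both comparisons.

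RNA was sequenced in 2 experiments in C57BL/6 mice. In the first, stromal vascular fraction (SVF) cells came from inguinal white fat of IRF-2D mice, named IRF3-2D in the paper. These mice carry an allele of constitutively active IRF3 that is silent until Cre acts on it. The cells were differentiated into adipocytes, transduced on day 6 with AAV and harvested on day 8. The virus carried GFP in the 3 WT libraries and GFP with Cre in the 3 FI3OE libraries. The WT cultures thus held the same silent allele, and the groups also differed in the presence of Cre. In the second, RNA on the ribosomes of adipocytes was isolated by translating ribosome affinity purification (TRAP) from epididymal white fat (eWAT) of Ad-NuTRAP mice (WT, 6 libraries) and FI3KO-Ad-NuTRAP mice (FI3KO, 6 libraries) after 8 weeks of high-fat diet (HFD) at thermoneutrality. In both TRAP groups Cre from the Adipoq promoter switched on the tagged ribosomal protein, so the controls carried Cre as well, and in FI3KO it also deleted Irf3. The labels give no age for any group and call every library a biological replicate.

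Complement is a cascade of plasma proteases and their substrates that tags microbes and cell debris. The classical route starts with C1q, whose proteases C1r and C1s cleave C4 and C2, while the alternative route needs factor D (Cfd), which cleaves factor B (Cfb) once it is bound to C3b. Both routes lead to the cleavage of C3. Adipocytes are the main source of circulating factor D, also known as adipsin, and they also make C3 and factor B. IRF3 is a transcription factor that drives interferon and chemokine genes downstream of Toll-like receptors.

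Total estimated reads ranged from 21541334 to 40490283 per library. Irf3 was 57.9, 56.8 and 56.8 CPM (reads of a gene as a share of the TMM-normalised library size) in the WT SVF-derived adipocytes and 92.0, 101.6 and 91.4 CPM in FI3OE. In TRAP it was 20.1 ± 2.14 CPM in WT and 15.8 ± 2.5 CPM in FI3KO (SD, n = 6 each), and the groups overlapped, with a log2 fold change of -0.18 in replicates 1 and 2 and of -0.45 in replicates 3 to 6. Transcript Irf3-202 had between 163.6 and 388.1 estimated reads in WT TRAP libraries and 0 in all 6 FI3KO libraries. The short transcript Irf3-211 went the other way, with no more than 7.65 estimated reads in WT against 89.9 to 175.3 in FI3KO, and so did Irf3-210, with up to 52.5 in FI3KO and up to 9.53 in WT, both without overlap. Per length, as TPM (a share of all transcripts, corrected for length), Irf3 was higher in FI3KO, at 55.1 to 93.5 TPM against 37.8 to 47.3 TPM. A read on a short transcript adds more TPM, and Irf3-211 has 369 bases where Irf3-202 has 1429. The part of this in the TPM difference was not tested. In the TRAP experiment replicates 1 and 2 stood apart from replicates 3 to 6 in both groups, without a label that accounts for it, and the TRAP values of the 8 genes are therefore also given within these 2 sets. WT replicates 1 and 2 were also more alike than any other of the 36 pairs of libraries within a group, with a chi-square per degree of freedom over genes of 2.54, where the other WT TRAP pairs ranged from 8.41 to 130.0. Their difference was larger than counting noise alone, which does not show that they came from separate animals. They were counted as 2 samples because the labels call every library a biological replicate.

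The 14 adipocyte marker genes, led by Fabp4 and Cidec in TRAP, were all detected in every group. Their summed level was 46554 to 54295 TPM in WT TRAP libraries, 46923 to 54020 TPM in FI3KO, 14150 to 14706 TPM in WT SVF-derived adipocytes and 14186 to 14257 TPM in FI3OE. At a false discovery rate (FDR) of at most 0.05, 3 of the 14 were higher and 7 lower in FI3OE, beside 20.2% and 16.8% of all genes. In TRAP 5 were higher and 1 lower in FI3KO, beside 19.1% and 18.3%. Within replicates 1 and 2, 0 were higher and 1 lower, beside 1.58% and 1.98%. Within replicates 3 to 6, 8 were higher and 1 lower, beside 25.7% and 24.8%. The SVF-derived cultures also held macrophage transcripts, with Lyz2 at a mean of 1111.5 TPM in WT and a summed level of 14 macrophage markers of 2292 to 2458 TPM in WT and 2378 to 2431 TPM in FI3OE. In TRAP the same 14 markers summed to 55.0 to 145.2 TPM in WT and 23.9 to 52.9 TPM in FI3KO. Of the 11 macrophage markers tested there, 9 were lower in FI3KO past both cutoffs and 1 was higher, beside 4.87% and 1.74% of all genes. In replicates 1 and 2, 0 of the 11 tested were at an FDR of at most 0.05, beside 3.56% of all genes. In replicates 3 to 6, 12 of the 13 tested were lower and 1 was higher at that FDR, beside 24.8% and 25.7% of all genes. Within replicates 1 and 2 the macrophage sum was 55.0 to 56.6 TPM in WT and 44.9 to 52.9 TPM in FI3KO, and within replicates 3 to 6 it was 96.5 to 145.2 and 23.9 to 29.3 TPM. In SVF-derived adipocytes the 12 fibroblast and preadipocyte markers summed to 8294.6 to 8488.6 TPM in WT and 7796.5 to 8089.7 TPM in FI3OE. These sums did not overlap. Of the 12, 3 were higher and 3 lower in FI3OE at an FDR of at most 0.05, beside 20.2% and 16.8% of all genes. In TRAP the 12 markers summed to 587.5 to 1293.0 TPM in WT libraries and to 382.5 to 642.1 TPM in FI3KO. Within replicates 1 and 2 this sum was higher in FI3KO, at 623.2 to 624.3 TPM against 587.5 to 593.6 TPM. Within replicates 3 to 6 it was lower, at 382.5 to 642.1 TPM against 882.6 to 1293.0 TPM. Of the 11 fibroblast markers tested in that set, 8 were lower and 1 was higher at an FDR of at most 0.05, beside 24.8% and 25.7% of all genes. The 10 mesothelial markers did not pass 36.1 TPM in sum in any TRAP library and overlapped between the groups in both sets, and none of the markers of these lists was at 0 in every library of a TRAP group. The part of these cells in the differences of complement genes was not tested.

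The genes lie in a few places of the genome (GRCm38). Cfd is on chr10:79890853-79892655 on the plus strand. C4b, Cfb and C2 lie close together in the major histocompatibility region of chromosome 17 on the minus strand, with C4b at chr17:34728380-34743882, Cfb at chr17:34856374-34862518 and C2 at chr17:34862604-34898265. The end of the C2 gene and the start of Cfb are separated by 85 bases. C3 is elsewhere on the same chromosome, at chr17:57203970-57228136 on the minus strand. C1ra (chr6:124512405-124523443, plus strand) and C1s1 (chr6:124530345-124542359, minus strand) face each other across 6901 bases. Serping1 is at chr2:84765387-84775444 on the minus strand. All 8 are annotated as protein-coding. The near-identical copies of 3 members were almost silent: C4a did not exceed 1.82 CPM, C1rb 0.599 CPM and C1s2 0.578 CPM in any library. A read-through gene, Gm20547, shares 2246 exonic bases with Cfb and 1656 with C2 on the same strand, and did not exceed 7.07 CPM.

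The promoters of Cfd and C3 are shown because these genes had the widest spread between TRAP libraries and differed from WT in opposite directions there. Each sequence is the 250 bases before the RefSeq start site (GRCm38.p6) on the strand of the gene, chr10:79890603-79890852 for Cfd (plus strand) and chr17:57228137-57228386 for C3 (minus strand), with matches to the searched motifs in capitals.
Cfd: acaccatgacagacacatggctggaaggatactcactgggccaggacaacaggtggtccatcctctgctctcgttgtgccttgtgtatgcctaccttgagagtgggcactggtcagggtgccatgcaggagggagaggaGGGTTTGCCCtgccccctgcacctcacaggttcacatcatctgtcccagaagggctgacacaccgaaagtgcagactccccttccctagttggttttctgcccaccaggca
C3: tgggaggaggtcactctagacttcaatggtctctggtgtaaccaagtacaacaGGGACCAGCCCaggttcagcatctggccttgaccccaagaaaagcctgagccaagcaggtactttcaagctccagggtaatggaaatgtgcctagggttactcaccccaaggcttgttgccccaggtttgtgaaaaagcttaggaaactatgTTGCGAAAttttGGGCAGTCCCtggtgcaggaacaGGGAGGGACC
The motifs searched on both strands, in windows of 300 bases of which 50 lie past the start, were the interferon-stimulated response element (ISRE, GAAA and GAAA parted by any 2 bases), the gamma-activated sequence (GAS, TTCNNNGAA), an NF-kB motif (GGG and CC parted by any 5 bases) and a C/EBP motif (TTGCNNAA). Of 32851 promoter windows, 3.44% held the ISRE letters, 8.3% the GAS letters, 50.8% the NF-kB letters and 10.8% the C/EBP letters. Windows were found for 4 members, Cfd, C3, C1ra and C1s1, and none of them held the ISRE letters. In Cfd the NF-kB letters matched once, as GGGTTTGCCC from base 111 to base 102 before the start, and read the same motif on the other strand. The C3 window held 5 matches to the NF-kB letters, of which a pair covered the same 10 bases (GGGCAGTCCC, 33 to 24 bases before the start) and a pair overlapped by all but 1 base. It also held the C/EBP letters as TTGCGAAA, 45 to 38 bases before the start. The C/EBP letters were also in the C1ra window, as TTGCATAA 17 to 24 bases past the start, and in the C1s1 window, as TTGCCTAA 242 to 235 bases before the start, both on the minus strand of the window. C1s1 further held the NF-kB letters once, as GGGAGTGGCC from 4 to 13 bases past the same start. The GAS letters occurred in the C1ra window alone, 33 to 41 bases past the start. The NF-kB letters are too common for a match to set a gene apart, and a match is no evidence of binding.

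The baseline level of each gene was compared per length, as TPM in WT libraries. Cfd was the highest of the 8 in both experiments, at 4746 ± 208 TPM in WT SVF-derived adipocytes (SD, n = 3), rank 13 of all genes, and at 2397 ± 1660 TPM in WT TRAP (SD, n = 6), rank 33. The SD in TRAP came from the sets: replicates 1 and 2 held 4501 and 4544 TPM and replicates 3 to 6 between 1126 and 1699 TPM. In WT SVF-derived adipocytes Cfd was followed by C3 (817.8 ± 10.9 TPM), C4b (560.7 ± 27.5 TPM), C1s1 (197.2 ± 14.7 TPM), Serping1 (162.2 ± 5.53 TPM), Cfb (99.1 ± 2.72 TPM), C1ra (83.6 ± 3.38 TPM) and C2 (30.9 ± 2.6 TPM), and no neighbours in this order overlapped. In WT TRAP the order after Cfd was C4b (754.2 ± 70.2 TPM), Cfb (468.9 ± 52.6 TPM), C3 (345.9 ± 130 TPM), Serping1 (296.9 ± 42.2 TPM), C1s1 (102.3 ± 13.7 TPM), C2 (55.3 ± 17.5 TPM) and C1ra (22.0 ± 2.1 TPM). There Cfb and C3 overlapped, as did C3 and Serping1, while the other neighbours did not. The order of C3 and Serping1 differed by set. In replicates 1 and 2 C3 held 178.5 and 181.3 TPM, below Serping1 at 258.1 and 269.2 TPM. In replicates 3 to 6 C3 held 401.4 to 463.7 TPM, above Serping1 at 258.8 to 363.4 TPM. Fat depot, culture and purification differ together between the experiments, so their levels stand side by side without a comparison.

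**Figure D1:**
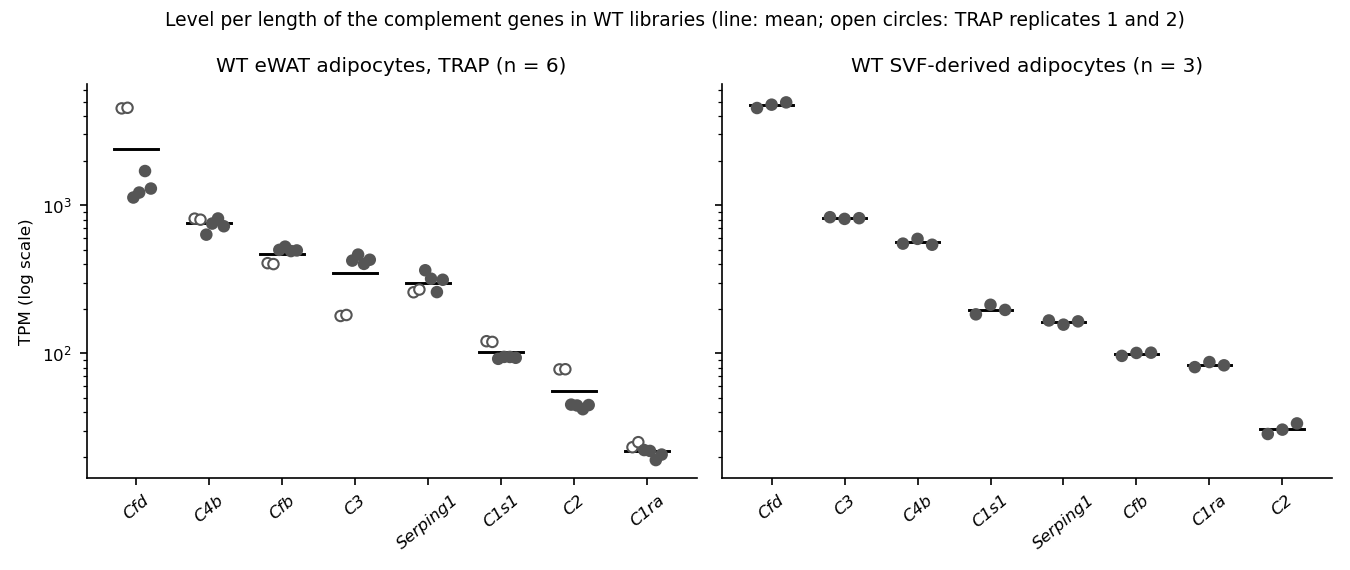
Level per length (TPM, log axis) of the 8 complement genes in each WT library, in falling order of the mean (line), for TRAP of eWAT adipocytes (left) and SVF-derived adipocytes (right). Open circles are TRAP replicates 1 and 2, which lie at 4501 and 4544 TPM for Cfd while the other 4 lie between 1126 and 1699 TPM.

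The first comparison asked which genes constitutively active IRF3 changes in cultured adipocytes. Of the 8 genes, Cfb had the largest difference and was the one past both cutoffs, a false discovery rate (FDR) no higher than 0.05 and a log2 fold change of 1 or more in either direction, which 3.62% of the 16105 genes tested met. All 8 were at an FDR of at most 0.05, as were 37.0% of genes, and in all 8 the 3 FI3OE libraries did not overlap the 3 WT libraries, which held for 49.5% of genes. With an offset for transcript length 7 of the 8 were at that FDR, without C1s1, and in a fit of all 18 libraries 1 was. The median of the 8 log2 fold changes was 0.01 and that of their absolute values 0.32, against a median of absolute values of 0.19 over all genes tested. Since the genes were listed with these differences known, nothing is read from these counts.

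In the alternative route, Cfb was 108.0, 118.4 and 112.2 CPM in WT and 263.4, 277.6 and 257.0 CPM in FI3OE. Every FI3OE library lay far above every WT library, a 2.36-fold difference (log2 fold change 1.24, SE 0.046). Cfd, which acts on factor B, was 1372.2, 1463.5 and 1524.6 CPM in WT and 1179.4, 1264.3 and 1337.2 CPM in FI3OE, a log2 fold change of -0.21 (SE 0.050). The lowest WT library lay above the highest FI3OE library by less than the spread within either group. C3, the component on which all routes converge, was 1693.1, 1806.5 and 1754.8 CPM in WT and 1303.2, 1326.9 and 1455.2 CPM in FI3OE (log2 fold change -0.36, SE 0.044).

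In the classical route, C2, which is cleaved by C1s and supplies the protease of the C3 convertase, was 33.1, 35.5 and 38.1 CPM in WT and 61.2, 68.0 and 63.0 CPM in FI3OE. This was the second largest difference of the 8, 1.8-fold (log2 fold change 0.85, SE 0.059). C4b, which supplies the other part of that convertase, was 1352.8, 1466.0 and 1367.7 CPM in WT and 1069.5, 1141.7 and 1113.7 CPM in FI3OE (log2 fold change -0.33, SE 0.040). The proteases of the C1 complex differed least, with a log2 fold change of 0.20 (SE 0.047) for C1ra, where FI3OE held 154.0 ± 6.33 CPM and WT 133.9 ± 6.97 CPM, and of -0.19 (SE 0.036) for C1s1, with 174.1 ± 1.89 and 198.0 ± 4.86 CPM (SD, n = 3 each). These neighbouring genes thus stood on opposite sides of WT. Serping1, the C1 inhibitor that blocks both proteases, was 133.9, 129.2 and 135.6 CPM in WT and 157.5, 161.6 and 173.7 CPM in FI3OE (log2 fold change 0.31, SE 0.044). The labels do not say whether the replicates came from separate cultures of the same cells, so these errors may measure technical spread.

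**Figure D2:**
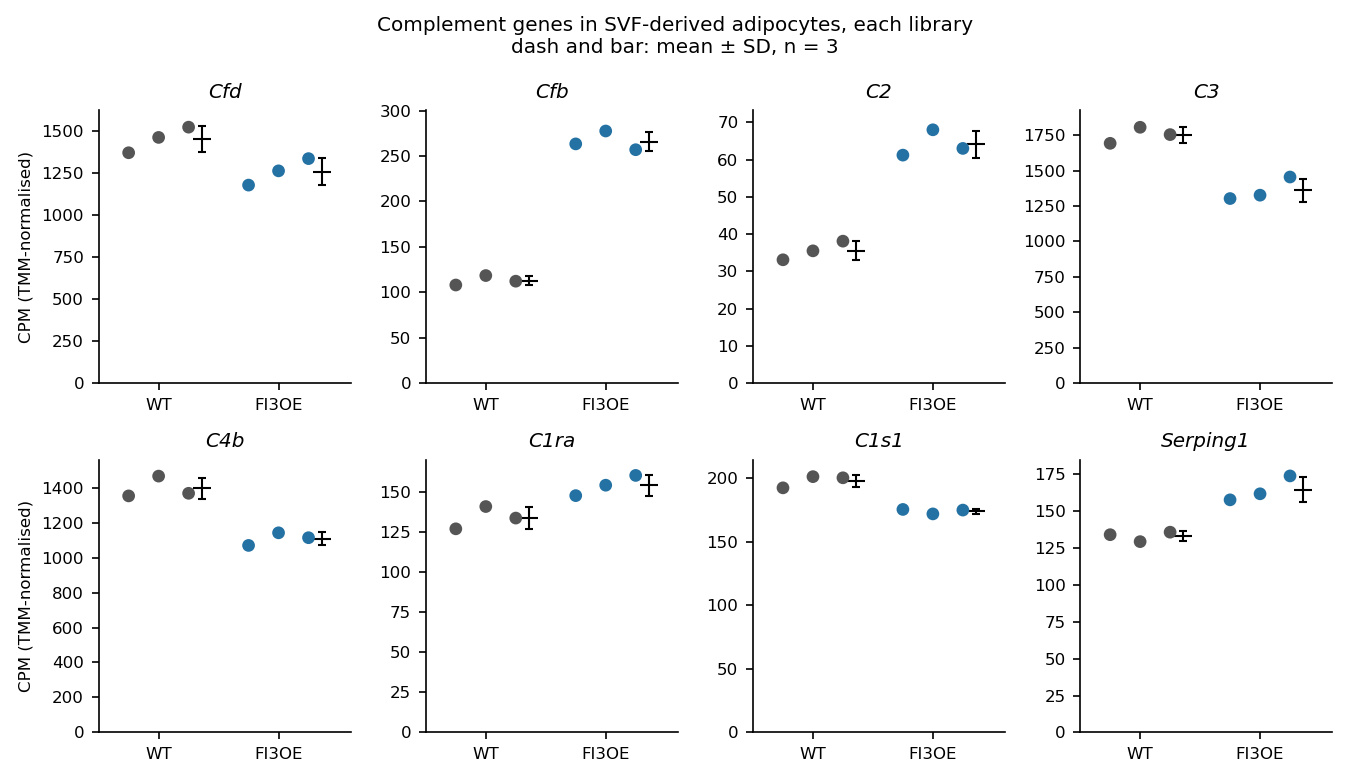
TMM-normalised CPM of each complement gene in the 3 WT and 3 FI3OE libraries of SVF-derived adipocytes (points), with mean ± SD. Cfb and C2 lie higher in FI3OE, without overlap (2.36-fold and 1.8-fold), and the other genes differ by at most 1.29-fold.

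The second comparison asked what the loss of Irf3 in adipocytes changes in the RNA on their ribosomes during HFD. Over all libraries FI3KO held more Cfd and C2 and less C3, Serping1 and Cfb than WT. In replicates 1 and 2, however, C2 was lower in FI3KO, and the differences of Cfd and C3 were smaller there than in replicates 3 to 6. Of the 8, Cfd, C2, C3 and Serping1 were past both cutoffs, which 6.61% of the 13624 genes tested met. These 4 and Cfb were at an FDR of at most 0.05, as were 37.4% of genes, and in Cfd, Cfb, C3 and Serping1 the groups did not overlap, as in 16.0% of genes. The median of the 8 log2 fold changes was -0.05 and that of their absolute values 1.00, against 0.02 and 0.24 over all genes tested. Within replicates 1 and 2, 2 of the 8 were past both cutoffs, beside 1.36% of genes, and within replicates 3 to 6, 5 of the 8, beside 13.6% of genes. At an FDR of at most 0.05 were 4 of the 8 in the first set, beside 3.56% of genes, and 7 in the second, beside 50.6%. The groups did not overlap for 8 of the 8 in the first set, beside 63.7% of genes, and for 7 in the second, beside 46.6%. In C2, C1ra and C1s1 they were apart in both sets but in opposite directions, as in 9.26% of genes. As above, the members were listed from these values and nothing is read from the counts. In such bulk libraries fewer cells of a type and less RNA per cell cannot be told apart.

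Cfd ranged from 303.4 to 1318.3 CPM in WT, with a median of 429.2 CPM, and from 1367.1 to 3438.8 CPM in FI3KO, with a median of 2585.0 CPM. Every FI3KO library lay above every WT library, and the log2 fold change was 1.83 (SE 0.42), a 3.55-fold difference. WT replicates 1 and 2, at 1279.8 and 1318.3 CPM, lay next to FI3KO replicates 1 and 2, at 1490.7 and 1367.1 CPM, and within this set the log2 fold change was 0.14 (SE 0.072). Within replicates 3 to 6 WT held 303.4 to 504.4 CPM and FI3KO 2376.4 to 3438.8 CPM, a log2 fold change of 2.97 (SE 0.18). From the first set to the second the mean Cfd level was 3.48-fold lower in WT and 2.04-fold higher in FI3KO.

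C2 went opposite ways in the sets. It ranged from 47.0 to 91.3 CPM in WT (median 49.3) and from 61.6 to 191.0 CPM in FI3KO (median 116.6), and the groups overlapped, with a log2 fold change of 1.01 (SE 0.28). In replicates 1 and 2 the FI3KO libraries, at 61.6 and 88.8 CPM, lay below the WT libraries, at 90.5 and 91.3 CPM (log2 fold change -0.27, SE 0.16). In replicates 3 to 6 they lay above, at 105.9 to 191.0 CPM against 47.0 to 50.3 CPM (log2 fold change 1.65, SE 0.17). Cfd and C2 are on different chromosomes.

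C3 was lower in FI3KO, at 105.5 to 158.7 CPM (median 138.5) against 318.8 to 829.0 CPM in WT (median 719.8). The groups did not overlap, and the difference was 4.62-fold (log2 fold change -2.21, SE 0.25). The 6 FI3KO libraries were close together, while WT replicates 1 and 2, at 325.4 and 318.8 CPM, held less than the other WT libraries, at 664.0 to 829.0 CPM. The log2 fold change was thus -1.33 (SE 0.16) in the first set and -2.48 (SE 0.12) in the second.

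Serping1 and Cfb were lower in FI3KO in both sets. Serping1 ranged from 196.8 to 268.0 CPM in WT (median 219.8) and from 45.0 to 79.9 CPM in FI3KO (median 60.4), a 3.62-fold difference without overlap (log2 fold change -1.86, SE 0.14). Its log2 fold change was -1.63 (SE 0.20) in replicates 1 and 2 and -1.96 (SE 0.15) in replicates 3 to 6. For Cfb the range was 419.9 to 514.1 CPM in WT (median 489.0) and 206.8 to 264.7 CPM in FI3KO (median 242.0). The groups were again apart, and the log2 fold change of -0.99 (SE 0.075) fell just short of the fold-change cutoff. It was -0.88 (SE 0.095) in the first set and -1.04 (SE 0.065) in the second.

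For the other 3 members the means differed by less than the larger SD of the groups. C4b, the second highest of the 8 in TPM, ranged from 1437.0 to 1885.9 CPM in WT (median 1775.0) and from 1195.8 to 1843.1 CPM in FI3KO (median 1348.3), a log2 fold change of -0.24 (SE 0.12). C1ra was 28.7 to 37.6 CPM in WT and 23.1 to 46.9 CPM in FI3KO (log2 fold change 0.15, SE 0.14), and C1s1 was 73.5 to 118.3 CPM in WT and 95.9 to 121.4 CPM in FI3KO (log2 fold change 0.22, SE 0.11). FI3KO and WT overlapped in all 3 when all libraries were used. In C1ra and C1s1 the sets again went opposite ways, with log2 fold changes of -0.41 and -0.22 in replicates 1 and 2 and of 0.40 and 0.46 in replicates 3 to 6, without overlap in either set. C4b was lower in FI3KO in the first set, at 1260.0 and 1195.8 CPM against 1869.4 and 1843.7 CPM (log2 fold change -0.59), and overlapped in the second (-0.07).

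**Figure D3:**
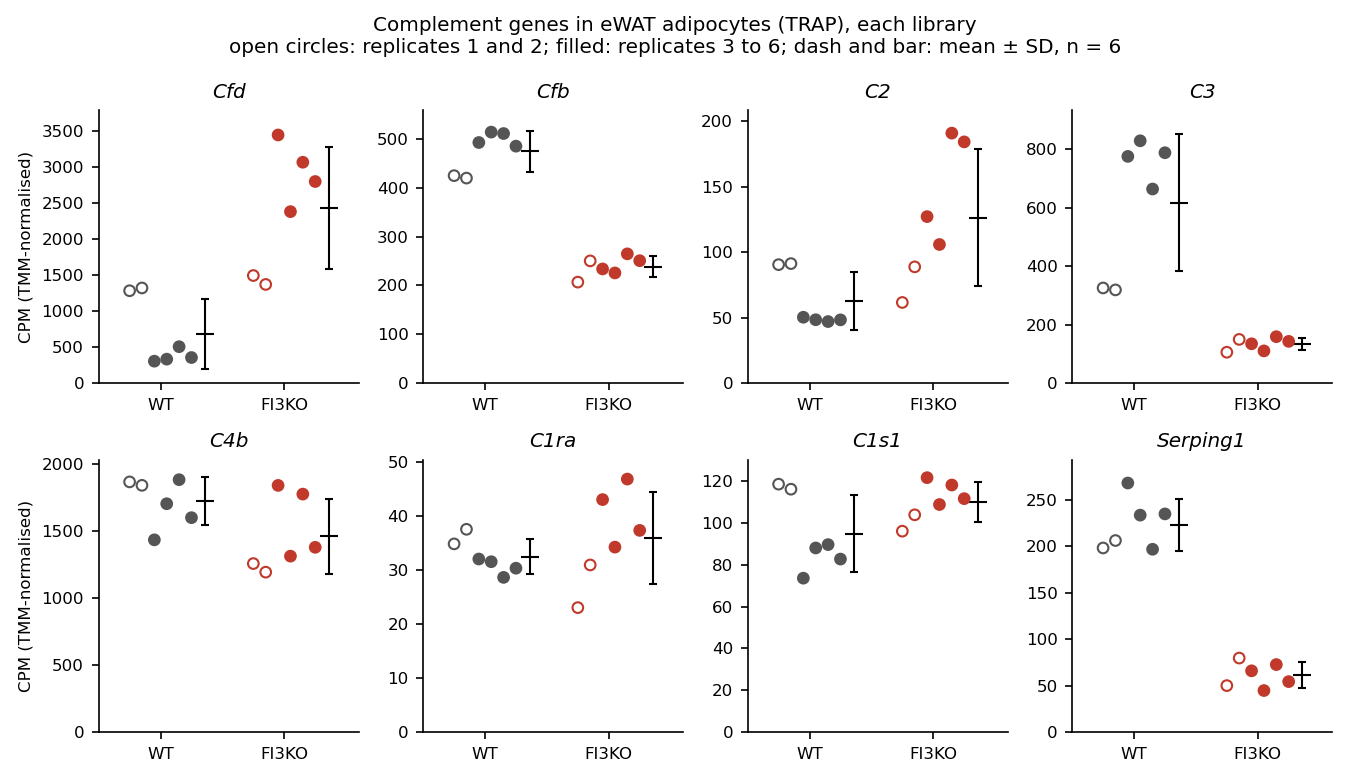
TMM-normalised CPM of each complement gene in the 6 WT and 6 FI3KO TRAP libraries (points), with mean ± SD; open circles are replicates 1 and 2. For Cfb and Serping1 FI3KO lies below WT in both sets, whereas for Cfd the WT libraries split into 1279.8 and 1318.3 CPM and 303.4 to 504.4 CPM.

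Set side by side, Cfb was higher in FI3OE and lower in FI3KO, with log2 fold changes of 1.24 and -0.99, and Serping1 stood on the same sides of WT, with 0.31 and -1.86. C3 and C4b were lower than WT in both comparisons, at -0.36 and -2.21 for C3 and at -0.33 and -0.24 for C4b, although the C4b groups overlapped in TRAP. C2 was higher in both over all libraries, at 0.85 and 1.01. Cfd was lower in FI3OE, at -0.21, and higher in FI3KO, at 1.83.

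**Figure D4:**
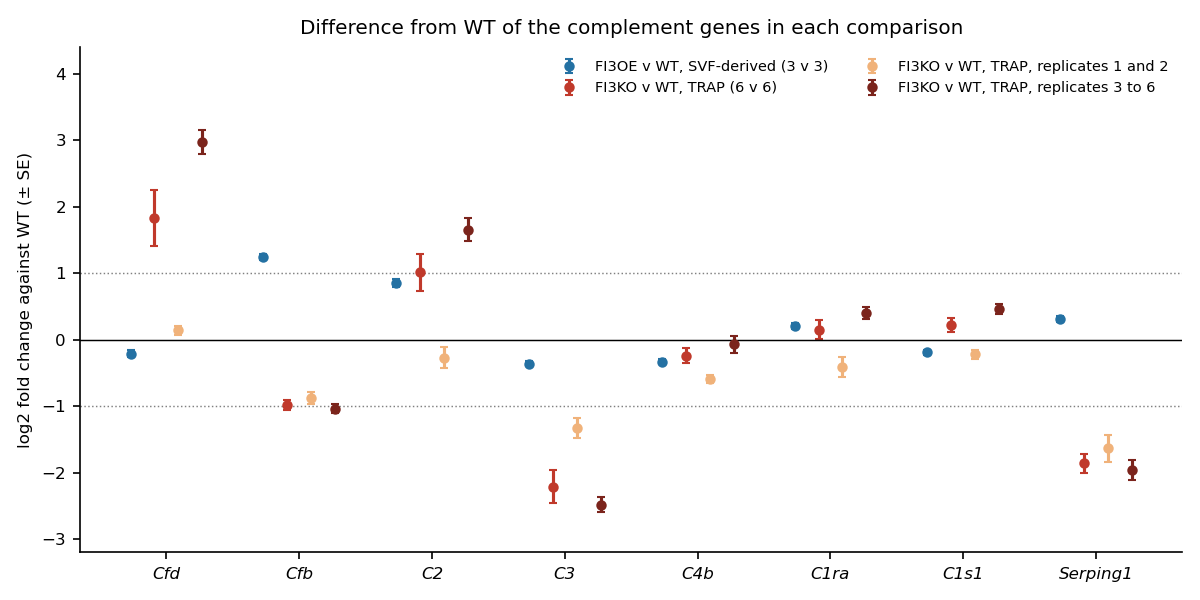
Log2 fold change against WT (± SE) of each complement gene in SVF-derived adipocytes and in TRAP, the latter with all libraries and within each set of replicates; dotted lines mark the fold-change cutoff. The 2 sets of TRAP replicates lie on the same side of 0 for Cfb (-0.88 and -1.04) and Serping1 (-1.63 and -1.96), and far apart for Cfd (0.14 and 2.97) and C2 (-0.27 and 1.65).

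The reads of each member were also divided by transcript. A single transcript held at least 89.5% of the estimated reads of C2, C3, C4b, C1ra or Serping1 in every library. Cfd was split between Cfd-202, at 54.5% to 65.5%, and the longer Cfd-201, at 34.5% to 45.5%. In TRAP Cfd-201 had a median share of 44.7% in FI3KO and 39.3% in WT, and the groups overlapped. Within replicates 1 and 2 its share was 44.9% to 45.5% in FI3KO and 39.3% in both WT libraries, and within replicates 3 to 6 the groups overlapped, with medians of 42.6% and 39.4%. Of C1s1, transcript C1s1-203 held 17.6% to 24.8% in FI3OE and 10.7% to 16.5% in WT SVF-derived adipocytes, while C1s1-204 held 64.2% to 70.5% and 73.2% to 75.7%. These shares did not overlap between the groups, and nor did those of other, scarcer member transcripts. Cfb-205, for example, held 0.0351% to 0.144% of 6232 to 9420 Cfb reads in FI3OE and 0.585% to 0.906% of 2558 to 2850 in WT. By the CPM of whole genes, which is another measure, these groups were apart in 49.5% of genes. How often the shares of all transcripts were apart was not counted. Cfb-206 was the main Cfb transcript in every library, at 67.5% to 88.8%. The test run on these shares is not used, for the reason given with the processing, so they are a description.

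The genes whose pattern over the 18 libraries was most like that of each member were found by the root mean square (RMS) difference of mean-centred log2 CPM among 8861 genes that were tested in both comparisons and had a mean log2 CPM of at least 3 over the 18 libraries. For Cfb the nearest were Mc2r (0.24), Clu (0.25) and Pde7a (0.26), where the RMS of Cfb itself was 0.88. Those of Cfd, with an RMS of 1.03, were farther off, namely Nat8l (0.34), Adgrg2 (0.41) and Hdgfl3 (0.44). C2 was nearest to Dennd2d (0.25), Ifi27l2a (0.32) and Fgf10 (0.32), and C3 to Tmem176a (0.34), Sept8 (0.34) and Plpp1 (0.35). Serping1 had Fam177a (0.28), Serpinb9 (0.37) and Sorbs2 (0.37). The members C4b (nearest Fndc3b, 0.14), C1ra (nearest Zc3hav1, 0.14) and C1s1 (nearest Uggt2, 0.10) varied less. Part of each pattern is the difference between the experiments, which these genes share. No member was among the 3 nearest genes of another.

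The rest of the complement system was read from a list of 47 other complement genes, whose differences were not used to choose the 8 members, although the list was drawn up with earlier results of these data known. In SVF-derived adipocytes 32 of the 47 passed the filter, 8 were higher and 7 lower in FI3OE at an FDR of at most 0.05 (edgeR's quasi-likelihood test), beside 20.2% and 16.8% of all genes, and their median log2 fold change was -0.01. In TRAP 28 passed, 2 were higher and 13 lower in FI3KO, beside 19.1% and 18.3% of all genes, with a median log2 fold change of -0.34, which was 0.09 within replicates 1 and 2 and -0.59 within replicates 3 to 6. Past both cutoffs were 1 higher and 9 lower, beside 1.74% and 4.87% of all genes. With at least 10 counts in every library, 3 other complement genes were past both cutoffs and 8 at the FDR cutoff. With a replicate block these counts were 4 and 8. Within replicates 1 and 2, 1 was higher and 3 lower at an FDR of at most 0.05, beside 1.58% and 1.98% of genes, and within replicates 3 to 6, 5 were higher and 16 lower, beside 25.7% and 24.8%.

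Among soluble regulators Clu (clusterin, which binds the terminal complex) was higher in FI3OE, from 14.9 to 28.5 CPM (log2 fold change 0.93, adjusted p = 1.53e-05 by edgeR), and lower in FI3KO, from 66.7 to 26.5 CPM (log2 fold change -1.33, adjusted p = 0.000102). The classical-route protease-like gene C1rl went the same ways, from 15.9 to 25.3 CPM in FI3OE (log2 fold change 0.67) and from 17.2 to 9.54 CPM in FI3KO (log2 fold change -0.85). For both genes the groups did not overlap in either comparison. Within replicates 1 and 2 and within replicates 3 to 6 the log2 fold change in FI3KO was -1.02 and -1.45 for Clu, past the test in both sets, and -0.55 and -0.99 for C1rl, of which the first did not pass. Lower in FI3KO was also Cfi, the protease that inactivates C3b and C4b, although at 0.466 CPM against 1.69 CPM it was scarce and its groups overlapped. Cfi passed the filter on low counts mainly through WT, and its fold change is a description. Its log2 fold change was 0.09 (SE 0.37) in replicates 1 and 2 and -2.52 (SE 0.48) in replicates 3 to 6, where the groups were apart. Vtn was the 1 other complement gene higher past both cutoffs in FI3KO (log2 fold change 1.53). It lies below the level set for naming and was picked after its values were seen. At 1.34 CPM in FI3KO and 0.457 CPM in WT its groups overlapped, with log2 fold changes of 0.77 and 1.94 in the 2 sets. Vtn passed the filter on low counts mainly through FI3KO, and its fold change is a description. Of the membrane regulators Cd55, which speeds the decay of convertases, was lower in FI3KO (log2 fold change -0.59, adjusted p = 0.00029 by edgeR), and Cd59b, which blocks the terminal complex, was higher (0.61). Cd55 passed the test in both sets, with -0.54 and -0.61, and Cd59b in the second set alone, with 0.24 and 0.83. The related Cd59a, outside the rule for named genes, was far more abundant, at 134.7 CPM in WT and 125.2 CPM in FI3KO. It did not pass over all libraries (log2 fold change -0.11) or in either set.

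In FI3OE the lectin-route protease Masp1 was higher (6.3 to 9.94 CPM, log2 fold change 0.66), while the ficolin Fcna was lower (25.1 to 16.5 CPM, log2 fold change -0.60). Colec11 was the one other complement gene past both cutoffs there, beside 1.99% of all genes higher past both cutoffs. It lies below the level set for naming and was picked after its values were seen. At 0.769 CPM in FI3OE and 0.17 CPM in WT, it had 80 reads over the SVF-derived libraries. With at least 10 counts in every library, and in the fit of all 18 libraries, 0 other complement genes were past both cutoffs. Nothing is read from this call. C8g, Cd46, C1qbp, C5ar1 and Itgam were lower by 0.31 to 0.59 on the log2 scale, and the macrophage receptor Vsig4 was higher by 0.47. Of the 10 named by the rule in FI3OE, only Clu and C1rl also passed when all 18 libraries were fitted together, C8g passed in 6 of 15 alternatives, and Cd46 in 11, not with FI3OE replicate 3 or WT replicate 1 left out. C1qa (log2 fold change 0.26) and C1qc (0.15) were slightly higher in FI3OE.

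The 9 other complement genes lower past both cutoffs in FI3KO included the C1q chains C1qa, C1qb and C1qc and the anaphylatoxin receptor C3ar1. Itgam, Itgax and Itgb2, which form the complement receptors CR3 and CR4, were also among them. All 7 are known from macrophages and other myeloid cells, a grouping made after the values were seen and not tested. On the same list C5ar1 (log2 fold change -1.47), Cfp (-0.37) and Cd93 (0.08) did not pass over all libraries. C1qa, C1qc, C6, Cfp and Cd93 are outside the rule for named genes and were picked after their values were seen. C3ar1 had a log2 fold change of -2.60, Itgax of -1.97, Itgam of -1.88, Itgb2 of -1.79 and C1qb of -1.47. The adjusted p by edgeR was 0.00101 for Itgax and 0.00834 for C1qb. Their levels in TRAP were low, with C1qb at 2.71 CPM in WT and 0.979 CPM in FI3KO where the SVF-derived adipocytes held 253.5 and 262.6 CPM. C3ar1 held 0.61 to 4.96 CPM in WT and 0.0619 to 1.1 CPM in FI3KO. It thus passed the filter on low counts mainly through WT, and its fold change is a description. The same holds for Itgam, Itgb2, C1qa and C1qc. Their lowest FI3KO libraries held 0.146, 0.292, 0.292 and 0.073 CPM, and their lowest WT libraries 1.24, 1.57, 0.535 and 0.531 CPM. Except for Itgax, the libraries of the groups overlapped. In replicates 3 to 6 the log2 fold change was -3.92 for C3ar1, -3.26 for Itgam, -3.21 for Itgb2, -2.57 for Itgax and -2.15 for C1qb, and in replicates 1 and 2 it was 0.13, 0.31, 0.36, -1.17 and 0.23, of which that of Itgax alone passed the test. The macrophage markers given above were lower in FI3KO in the same set, and their part in these differences was not tested. Without WT replicate 3, Itgb2 no longer passed. Among the terminal components C6 was the one with more than 10 CPM in TRAP, at 20.7 CPM in WT and 31.1 CPM in FI3KO, and over all libraries it did not pass the test (log2 fold change 0.58, SE 0.22, adjusted p = 0.0511 by edgeR). Within replicates 3 to 6 it was higher in FI3KO without overlap (log2 fold change 1.11, SE 0.14), and within replicates 1 and 2 both FI3KO libraries lay below WT (-0.30). The gene and the sets were picked from these values, so the differences within the sets are a description.

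**Figure D5:**
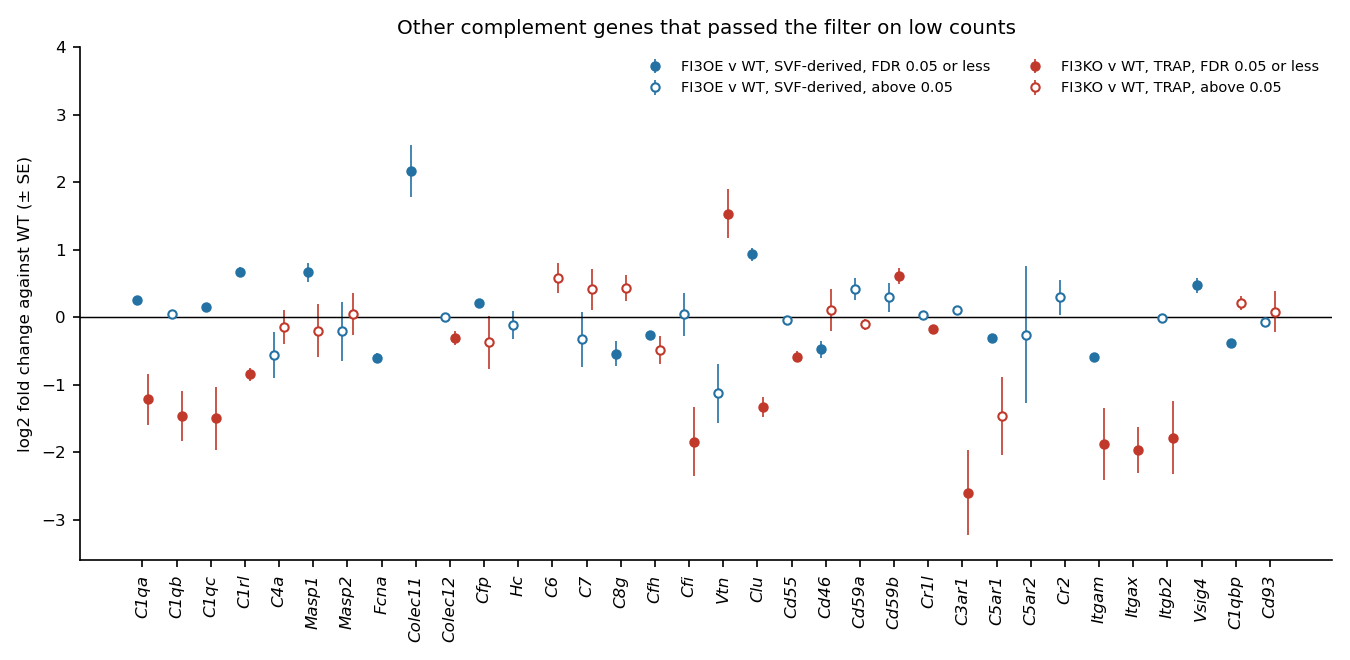
Log2 fold change against WT (± SE) of the other complement genes that passed the filter on low counts in SVF-derived adipocytes or TRAP; filled points have an FDR of at most 0.05. In TRAP 13 of the 15 filled points lie below 0, and in SVF-derived adipocytes 7 of 15.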

How the data were processed

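RNA-seq libraries were compared within each experiment, grouped by the labels. The deposited tables give, for each of 118733 transcripts, Salmon's expected counts (not normalised), TPM and an effective length, which the authors obtained with Salmon (version 1.4.0) against GENCODE M24 of GRCm38 after trimming with fastp. Libraries had been depleted of rRNA and made with a transposase kit that keeps no strand, with 12 PCR cycles, so antisense reads cannot be told apart. Here transcripts were assigned to genes with GENCODE M21 (117850 matched), and expected counts were summed per gene and rounded.

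Each experiment was fitted on its own over all genes with edgeR 4.0.16 in R 4.3.3 (filterByExpr, TMM, quasi-likelihood test, Benjamini-Hochberg adjustment, no covariate), with the study's cutoffs, an FDR no higher than 0.05 and a log2 fold change of 1 or more in either direction. SE is the absolute log2 fold change over the root of the F statistic. On simulated data with 200 genes changed by a log2 fold change of 1.5, 93% (SVF design) and 90% (TRAP design) were recovered, with 12 and 11 false calls. A test of transcript shares recovered 8% and 7% there, and it was dropped for this reason after its calls had been seen.

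The members, gene lists and tests were chosen with earlier results of these data known. Named genes were the 8 members, their close copies, Irf3, in each comparison the 10 other complement genes with the largest change at an FDR of at most 0.05 and a mean log2 CPM not below 0, and the 3 genes most like each member. Outside this rule, Colec11, C1qa, C1qc, C6, Cfp, Cd93, Vtn and Cd59a were picked after their values were seen. Promoters came from RefSeq (GRCm38.p6), with an entry for 4 of the 8 members. Alternatives were DESeq2 1.42.0 (size factors or its Wald test), other filters, a length offset, a fit of all 18 libraries, a replicate block, removal of mitochondrial and rRNA genes, summed close copies, each set of TRAP replicates alone or as a term, WT TRAP replicates 1 and 2 merged, and each library left out.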

Additional observations from a re-analysis of the deposited data

Results flagged for a closer look

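In the TRAP libraries the difference between FI3KO and WT went opposite ways in replicates 1 and 2 and in replicates 3 to 6 for C2, C1ra, C1s1 and 7 of the 28 other complement genes that passed the filter on low counts, with every FI3KO library of a set on the same side of every WT library of that set. The log2 fold change of C2 was -0.27 in the first set and 1.65 in the second, that of C1ra was -0.41 and 0.40, and that of C1s1 was -0.22 and 0.46. Of the other complement genes, C6 alone was lower in the first set and higher in the second, at -0.30 and 1.11. The rest were higher in the first and lower in the second, with Itgam at 0.31 and -3.26, C1qb at 0.23 and -2.15, C1qc at 0.55 and -2.56, C5ar1 at 1.11 and -2.95, Cfp at 0.96 and -1.32 and Cd93 at 1.09 and -0.68. Of all genes tested in TRAP, 9.26% went opposite ways without overlap in either set. The difference between the sets was not tested, since the sets were read from the data and the members were listed with these values known. Over 44 groups of 6 TRAP libraries, 3 groups had a library far from the others by Dixon's ratio, which chance gives in about 1 of 20. The 44 groups covered the members, Irf3 and part of the other complement genes named in TRAP. C3ar1 was 1.1 CPM in FI3KO replicate 2 and 0.0619 to 0.294 CPM in the other FI3KO libraries. C1qa was 1.03 CPM in the same library and 0.292 to 0.545 CPM in the other FI3KO libraries. Itgax was 14.9 CPM in WT replicate 3 and 8.23 to 10.6 CPM in the other WT libraries. No group of a member was among them.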

How the results depend on the processing

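The log2 fold changes of the 8 members were computed under 15 alternatives in SVF-derived adipocytes and 25 in TRAP, 320 values in all, of which 317 had the sign reported above. The exceptions were those of C2 (-0.27, a reversal), C1ra and C1s1 in TRAP replicates 1 and 2 alone. In SVF-derived adipocytes the log2 fold change of Cfb lay between 1.20 and 1.27 and was past both cutoffs throughout, while in the fit of all 18 libraries 1 of the 8 members was at an FDR of at most 0.05, beside 1572 genes (342 past both cutoffs) and 2 other complement genes (0 past both cutoffs). With an offset for transcript length 3800 genes and 7 members were at that FDR, without C1s1 (-0.15, SE 0.0731). The count of other complement genes past both cutoffs in FI3OE was 0 with at least 10 counts in every library and 2 with a replicate block, and 1 to 2 when single libraries were left out. In TRAP, 2 members were past both cutoffs in replicates 1 and 2 alone, with 191 genes past both cutoffs and 500 at the FDR cutoff, and 3 and 4 other complement genes. In replicates 3 to 6 alone 1868 genes were past both cutoffs, and in the fit of all 18 libraries 1355. With at least 10 counts in every library 574 genes were past both cutoffs, with 3 other complement genes past both and 8 at the FDR cutoff. With single TRAP libraries left out, the members past both cutoffs numbered 3 to 5, beside 761 to 1115 genes, since Cfb (-1.03 to -0.96) and C2 (0.85 to 1.15) crossed the fold-change cutoff.

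Replicate numbers did not pair the libraries: deviations from the group means of equally numbered libraries correlated between -0.05 and 0.02 over genes in SVF-derived adipocytes and between -0.29 and 0.10 in TRAP. With the replicate block 579 genes in SVF-derived adipocytes and 736 in TRAP were past both cutoffs, and of the other complement genes in TRAP 4 were past both cutoffs and 8 at the FDR cutoff, with C1qb, Itgam, Itgb2 and Cfi among those that no longer passed. Of the members in TRAP, 3 were then past both cutoffs and 4 at the FDR cutoff (3632 genes), without C2 (0.99, SE 0.358). The cause of these shifts was not tested. The order of WT levels by CPM per kilobase of the longest transcript kept 4 of 8 places in SVF-derived adipocytes. In WT TRAP Serping1, at 128.3, then lay above C3, at 122.7. The planned test of transcript shares is not reported, for the reason given with the processing.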
